A study of Mus musculus with 3 samples.

Results

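The genes described here encode the granule proteins of neutrophils and other products typical of granulocytes, and they were read on 3 expression arrays of mouse macrophages. A list of 34 genes was drawn up with earlier results of these arrays known, and its members were selected on their measured level, since a gene is reported where its probe set, the group of array probes that reads it, lay above a log2 value of 5.3 on at least 1 array. Of the 34 genes, 30 had a probe set annotated with that symbol alone and 29 of these lay above 5.3, out of 12025 genes above it among 18193 on the array. *Stfa2*, *Fpr1*, *Retnlg* and *Cebpe* had no such probe set and are not analysed here. *Gfi1* was at 3.10, 3.35 and 3.40 in the order BMDM, pTAMs and mTAMs. It was the only measured member not above the limit, and lay well below it. *Elane*, the member just inside it, reached 5.89. The limit of 5.3 is called the floor. Where the lower of 2 compared values did not exceed it, the fold was counted from the floor and is given as "at least".

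The study compared macrophages of the 4T1 model, in which 4T1 mammary carcinoma cells are placed in the mammary fat pad of BALB/c mice, 5 to 6 weeks old at inoculation, and spread to the lung. BMDM were macrophages differentiated in culture from the bone marrow of healthy mice, for which no strain or age was found. pTAMs were tumor-associated macrophages from the primary tumor and mTAMs those from the matched metastatic lung, both taken after 5 weeks of tumor growth. With no array of macrophages from normal lung, the organ and the metastasis cannot be told apart in mTAMs against pTAMs. No transgene, gene deletion or drug treatment is given for any of the 3 groups, and each was measured on 1 array. The paper describes a sort for CD11b and F4/80 for pTAMs and mTAMs. In some of its experiments cells carrying the surface marker Ly6C were also left out. Its account of the arrays does not say which sort was used. The number of mice behind an array was not found in the labels or methods. Without replicates, the spread between animals is unknown and no difference could be tested. For any gene, fewer cells of a type and less RNA per cell cannot be told apart in such bulk samples.

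Neutrophils build their granules in a fixed order as they mature in the bone marrow. Promyelocytes fill the primary (azurophil) granules with myeloperoxidase and serine proteases, myelocytes and metamyelocytes fill the secondary (specific) and tertiary granules with proteins that bind iron or damage microbes, and the mature cell carries large amounts of the calcium-binding proteins S100A8 and S100A9 in its cytosol. The genes of the first granules are shut off before the cell leaves the marrow, so that mRNA of the successive classes marks successive stages. CD11b, one of the sort markers, is carried by neutrophils and monocytes as well as by macrophages.

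Most of the 29 genes were lowest in BMDM, intermediate in pTAMs and highest in mTAMs. This order held for 28 of them, the exception being *Ctsg*, and it held for 15.0% of all genes above the floor. Between mTAMs and pTAMs, 24 of 29 differed by 2-fold or more toward mTAMs and 0 toward pTAMs, whereas 5.36% of all compared genes lay that much higher in mTAMs and 2.58% lower. The median log2 difference was 1.83, against -0.06 over all 11801 genes compared. Between pTAMs and BMDM, the same limit was passed by 25 of 29 upward in pTAMs and by 0 downward, against 8.78% and 7.5% of all genes, with a median difference of 4.00 against -0.05. Between mTAMs and BMDM, it was passed by 28 of 29 upward and 0 downward, against 11.5% and 14.4%, with medians of 5.44 and -0.11. The list was put together with these differences known, so the counts describe the members and are not evidence about neutrophil genes as a class. The comparisons also share arrays with each other. In BMDM, 13 of the 29 genes lay at or below the floor, whereas 28 were above it in pTAMs and all 29 in mTAMs. Since 1 array above the floor was enough, these 13 were reported through their pTAM and mTAM values. The counts are therefore partly set by that rule, and no such share over all genes is given here. *Serpinb1a*, *Ctsg*, *Elane* and *Mpo* were only just above the floor in BMDM, from 5.35 to 5.44. A technical spread was at hand only where a gene had several probe sets, whose log2 differences had an SD of 0.28 for mTAMs against pTAMs, 0.43 for pTAMs against BMDM and 0.52 for mTAMs against BMDM.

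**Figure D1:**
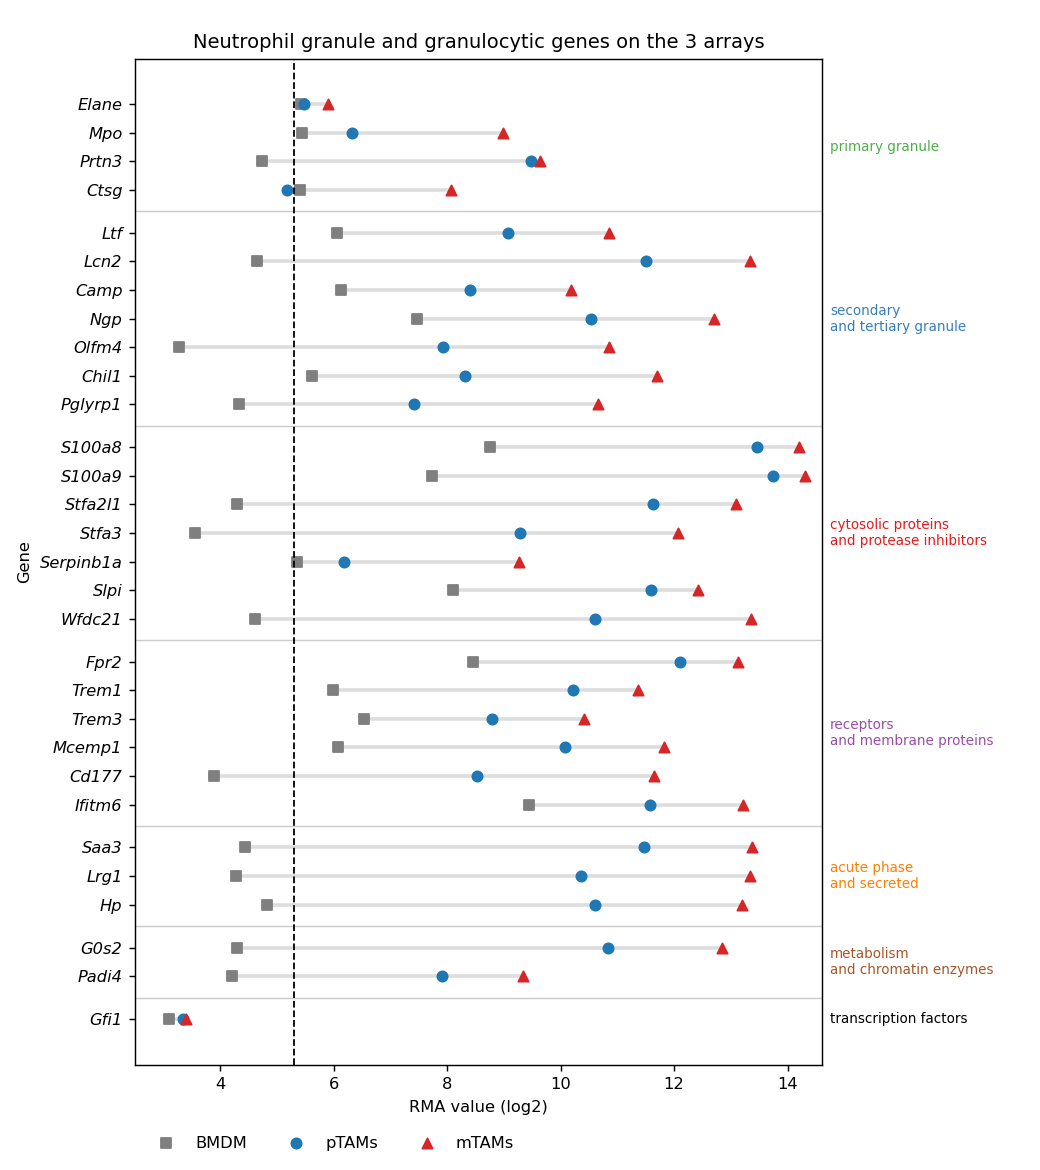
RMA values (horizontal axis, log2) of the 30 genes with a probe set (vertical axis, grouped by role), with 1 point per array for BMDM (squares), pTAMs (circles) and mTAMs (triangles) and the floor of 5.3 as a dashed line. The mTAM value is the highest of the 3 for every gene, *Elane* stays between 5.42 and 5.89, and *Gfi1* lies below the floor on all arrays.

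The 4 genes of the primary granule differed among themselves. *Mpo*, which encodes the peroxidase that makes hypochlorous acid, was 5.44 in BMDM, 6.32 in pTAMs and 8.98 in mTAMs. *Ctsg*, which encodes the serine protease cathepsin G, was 5.40 in BMDM, 5.18 in pTAMs and 8.07 in mTAMs. Both were thus near the floor in BMDM and stood out in mTAMs, with *Mpo* 6.32-fold and *Ctsg* at least 6.82-fold above pTAMs. *Prtn3*, which encodes proteinase 3, was 4.74 in BMDM, 9.48 in pTAMs and 9.64 in mTAMs. pTAMs therefore exceeded BMDM at least 18.1-fold, while mTAMs and pTAMs differed by 0.16 on the log2 scale, less than the SD of 0.28 between probe sets. *Elane*, which encodes neutrophil elastase, was 5.42 in BMDM, 5.48 in pTAMs and 5.89 in mTAMs. Its 3 values lay within 0.47 of each other, close to the floor. *Prtn3* and *Elane* are next to each other in the mouse genome, with 0 protein-coding genes between them in the RefSeq gene table of GRCm38.p6, and their profiles on these arrays differed although both encode primary granule proteases.

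The promoters of the primary granule genes are shown because all 4 hold the same short sequence. In RefSeq promoters of GRCm38.p6, which run from 250 bases before to 50 bases after a gene's start, 2 motifs were searched on both strands. They were GAGGAAG, a core of the sites bound by the transcription factor PU.1, and TTNNGNAA, a core of those bound by C/EBP factors. PU.1 and C/EBP factors act in granulocytes and macrophages alike. GAGGAAG was found in 4 of 4 primary granule promoters and in 13.6% of all 32851 promoters. TTNNGNAA was found in 0 of these 4 and in 40.7% of all promoters. In the sequences printed here the matches of both motifs do not overlap. Capitals mark a match on either strand of the sequences, which run 5′ to 3′ on the gene's strand.
*Prtn3*, chr10:79879417-79879716, plus strand: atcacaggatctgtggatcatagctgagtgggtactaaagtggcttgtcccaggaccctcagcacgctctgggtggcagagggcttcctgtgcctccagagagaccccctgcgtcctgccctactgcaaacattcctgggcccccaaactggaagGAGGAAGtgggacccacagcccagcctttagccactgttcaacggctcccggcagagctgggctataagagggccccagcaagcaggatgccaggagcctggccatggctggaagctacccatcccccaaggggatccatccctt
*Elane*, chr10:79886062-79886361, plus strand: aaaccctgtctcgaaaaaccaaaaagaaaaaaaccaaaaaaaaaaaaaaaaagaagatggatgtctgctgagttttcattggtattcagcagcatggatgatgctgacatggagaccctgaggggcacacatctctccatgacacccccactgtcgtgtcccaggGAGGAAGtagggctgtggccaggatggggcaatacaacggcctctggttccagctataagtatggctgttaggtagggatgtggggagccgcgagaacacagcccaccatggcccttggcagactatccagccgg
*Mpo*, chr11:87793534-87793833, plus strand: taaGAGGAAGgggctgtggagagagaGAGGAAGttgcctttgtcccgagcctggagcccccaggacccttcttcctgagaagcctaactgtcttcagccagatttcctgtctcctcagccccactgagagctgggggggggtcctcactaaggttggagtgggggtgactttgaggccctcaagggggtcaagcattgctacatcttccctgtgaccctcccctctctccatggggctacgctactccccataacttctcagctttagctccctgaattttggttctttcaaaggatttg
*Ctsg*, chr14:56102525-56102824, minus strand: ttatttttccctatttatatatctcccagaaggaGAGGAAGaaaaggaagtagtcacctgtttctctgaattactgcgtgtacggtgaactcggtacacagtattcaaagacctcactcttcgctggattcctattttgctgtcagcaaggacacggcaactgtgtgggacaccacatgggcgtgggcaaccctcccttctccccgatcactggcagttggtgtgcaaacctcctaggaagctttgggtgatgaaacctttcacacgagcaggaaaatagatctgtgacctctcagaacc
Counted from the gene's start, with -1 the base before it, the match began at -95 in *Prtn3*, at -85 in *Elane* and at -216 in *Ctsg*. *Mpo* held 2 matches, at -247 and -224. A match describes these letters only, and binding was not measured. The neighbors *Prtn3* and *Elane* both hold it, and pTAMs differed from BMDM by 4.74 on the log2 scale in the one and by 0.06 in the other. Whether the motif has a part in these levels was not tested.

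Genes of the secondary and tertiary granules were higher in pTAMs than in BMDM and higher again in mTAMs. All 7 passed the 2-fold limit at each step, and the log2 difference between mTAMs and pTAMs ran from 1.77 to 3.38 (median 2.18). *Ltf*, which encodes the iron-binding protein lactoferrin, was 6.05 in BMDM, 9.08 in pTAMs and 10.85 in mTAMs. *Lcn2*, which encodes lipocalin 2, a protein that traps bacterial iron carriers, was 4.65 in BMDM, 11.51 in pTAMs and 13.34 in mTAMs. These iron-binding members were 3.41-fold and 3.56-fold higher in mTAMs than in pTAMs. *Camp*, which encodes the precursor of the antimicrobial peptide cathelicidin, was 6.13 in BMDM, 8.41 in pTAMs and 10.18 in mTAMs. *Ngp*, which encodes neutrophilic granule protein, was 7.46 in BMDM, 10.53 in pTAMs and 12.71 in mTAMs. *Camp* and *Ngp* were 3.41-fold and 4.53-fold higher in mTAMs than in pTAMs. They lie on the same chromosome with 8 protein-coding genes between them. *Olfm4*, which encodes olfactomedin 4, a glycoprotein of the specific granules, was 3.28 in BMDM, 7.92 in pTAMs and 10.86 in mTAMs. *Pglyrp1*, which encodes a protein that binds bacterial peptidoglycan, was 4.33 in BMDM, 7.41 in pTAMs and 10.66 in mTAMs. *Chil1*, which encodes a chitinase-like protein of the specific granules, was 5.62 in BMDM, 8.31 in pTAMs and 11.69 in mTAMs. With 7.67-fold, 9.51-fold and 10.4-fold, these 3 differed more between mTAMs and pTAMs than the other 4 genes of the group, and *Chil1* had the largest such difference of all 29 members (rank 26 among the 11801 genes compared).

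Of the 7 secondary and tertiary granule promoters, 5 held TTNNGNAA and 3 held GAGGAAG, against 40.7% and 13.6% of all promoters. That of *Chil1* is shown for the gene with the largest difference between mTAMs and pTAMs, and that of *Ngp* for its 3 matches.
*Chil1*, chr1:134181906-134182205, plus strand: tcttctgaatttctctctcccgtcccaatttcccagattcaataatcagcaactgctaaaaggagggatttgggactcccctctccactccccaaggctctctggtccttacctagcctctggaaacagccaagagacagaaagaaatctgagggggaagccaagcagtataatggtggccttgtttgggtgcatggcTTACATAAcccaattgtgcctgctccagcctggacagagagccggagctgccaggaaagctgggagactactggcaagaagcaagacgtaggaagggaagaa
*Ngp*, chr9:110419558-110419857, plus strand: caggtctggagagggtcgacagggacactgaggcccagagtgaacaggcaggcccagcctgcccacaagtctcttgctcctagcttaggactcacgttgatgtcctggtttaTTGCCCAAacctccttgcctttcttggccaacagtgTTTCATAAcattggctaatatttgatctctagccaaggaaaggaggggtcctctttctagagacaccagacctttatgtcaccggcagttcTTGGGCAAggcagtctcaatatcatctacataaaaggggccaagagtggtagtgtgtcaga
The match began at -52 in *Chil1*, and in *Ngp* matches began at -138, -102 and -11. *Camp* and *Pglyrp1* held no TTNNGNAA in this window.

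Of the 7 measured genes for cytosolic proteins and protease inhibitors, 6 passed the 2-fold limit between pTAMs and BMDM and 4 passed it between mTAMs and pTAMs. *S100a8*, which encodes 1 chain of calprotectin, the calcium-binding and zinc-binding protein of the neutrophil cytosol, was 8.76 in BMDM, 13.47 in pTAMs and 14.20 in mTAMs. *S100a9*, which encodes the partner chain, was 7.73 in BMDM, 13.75 in pTAMs and 14.30 in mTAMs. The pair lay 26.2-fold and 64.9-fold above BMDM in pTAMs, and mTAMs exceeded pTAMs only 1.66-fold and 1.46-fold. The value of 14.30 equals the maximum of the mTAM array, and whether this close to the top of the scale differences are compressed was not tested. *S100a8* and *S100a9* are neighboring genes, with 0 protein-coding genes between them. *Slpi*, which encodes a secreted inhibitor of elastase and cathepsin G, was 8.10 in BMDM, 11.60 in pTAMs and 12.42 in mTAMs. It was 1.77-fold higher in mTAMs than in pTAMs, below the 2-fold limit. *Serpinb1a*, which encodes a cytosolic inhibitor of the neutrophil serine proteases, was 5.35 in BMDM, 6.18 in pTAMs and 9.27 in mTAMs. Unlike *Slpi*, it was within 2-fold between pTAMs and BMDM and 8.51-fold higher in mTAMs than in pTAMs. Its second probe set was 3.99 in BMDM, 3.90 in pTAMs and 6.77 in mTAMs, and thus above the floor in mTAMs alone. *Stfa2l1* and *Stfa3* encode stefin A proteins, inhibitors of cysteine proteases that are abundant in mouse granulocytes. *Stfa2l1* was 4.29 in BMDM, 11.63 in pTAMs and 13.09 in mTAMs. *Stfa3* was 3.56 in BMDM, 9.29 in pTAMs and 12.07 in mTAMs. The 2 genes of this cluster differed in size, with *Stfa2l1* 2.75-fold and *Stfa3* 6.87-fold higher in mTAMs than in pTAMs. Genes of the stefin A cluster resemble each other, so 1 probe set may also read transcripts of its neighbors. *Wfdc21*, which encodes a small secreted protein with a whey acidic protein domain, was 4.62 in BMDM, 10.61 in pTAMs and 13.35 in mTAMs. It was 6.68-fold higher in mTAMs than in pTAMs.

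**Figure D2:**
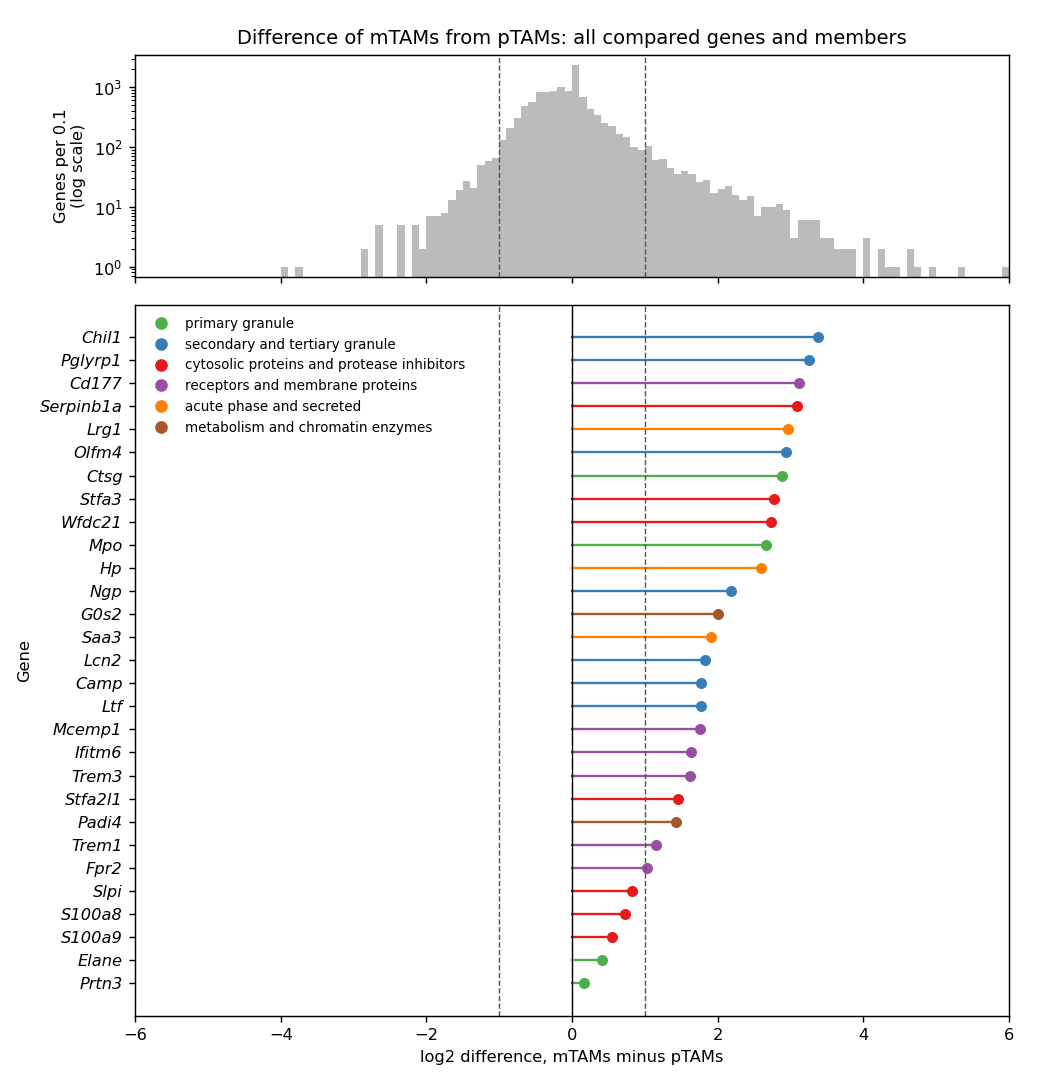
Log2 difference of mTAMs from pTAMs (horizontal axis, dashed lines at 2-fold) for all 11801 compared genes (upper panel, genes per bin of 0.1 on a log axis, with any difference beyond 6 drawn at 6) and for each of the 29 members (lower panel, colored by role, 1 array per group). All members lie to the right of 0, from 0.16 for *Prtn3* to 3.38 for *Chil1*, and 24 lie beyond the 2-fold line.

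All 6 measured genes for receptors and other membrane proteins passed the 2-fold limit at both steps. *Fpr2*, which encodes a receptor for formylated bacterial peptides and for serum amyloid A, was 8.45 in BMDM, 12.10 in pTAMs and 13.13 in mTAMs. Its difference of 1.03 between mTAMs and pTAMs was just past the 2-fold limit. *Trem1*, which encodes a receptor that amplifies inflammatory signals, was 5.99 in BMDM, 10.22 in pTAMs and 11.37 in mTAMs. Its second probe set gave 4.63, 9.53 and 11.07 in the same order, and thus a difference of 1.54 in place of 1.15 between mTAMs and pTAMs. *Trem3*, an activating receptor gene next to *Trem1*, was 6.54 in BMDM, 8.79 in pTAMs and 10.41 in mTAMs. The neighbors were 2.22-fold and 3.07-fold higher in mTAMs than in pTAMs. *Mcemp1*, which encodes a membrane protein of mast cells and other myeloid cells, was 6.07 in BMDM, 10.07 in pTAMs and 11.83 in mTAMs. *Ifitm6*, of the interferon-induced transmembrane family, was 9.45 in BMDM, 11.58 in pTAMs and 13.22 in mTAMs. *Cd177*, which encodes a surface protein of neutrophils that is also stored in specific granules, was 3.89 in BMDM, 8.52 in pTAMs and 11.64 in mTAMs. *Cd177* had the largest difference of the group between mTAMs and pTAMs (8.69-fold), where *Mcemp1* and *Ifitm6* were 3.39-fold and 3.12-fold higher.

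The 3 measured acute phase genes were below the floor in BMDM and passed the 2-fold limit at both steps. *Saa3*, which encodes an inducible serum amyloid A made by macrophages and other cells as well as in inflamed tissue, was 4.43 in BMDM, 11.47 in pTAMs and 13.38 in mTAMs. *Lrg1*, which encodes a leucine-rich glycoprotein found in neutrophil granules and in plasma, was 4.27 in BMDM, 10.36 in pTAMs and 13.33 in mTAMs. *Hp*, which encodes the hemoglobin-binding protein haptoglobin, was 4.82 in BMDM, 10.60 in pTAMs and 13.19 in mTAMs. All 3 were higher in mTAMs than in pTAMs, *Saa3* 3.76-fold, *Lrg1* 7.84-fold and *Hp* 6.02-fold. Against BMDM, mTAMs were at least 271-fold higher for *Saa3*, 261-fold for *Lrg1* and 237-fold for *Hp*, and these bounds give no order. The promoter of *Saa3* is shown because it held 4 matches to TTNNGNAA, more than any other member, whereas that of *Lrg1* held none.
*Saa3*, chr7:46715627-46715926, minus strand: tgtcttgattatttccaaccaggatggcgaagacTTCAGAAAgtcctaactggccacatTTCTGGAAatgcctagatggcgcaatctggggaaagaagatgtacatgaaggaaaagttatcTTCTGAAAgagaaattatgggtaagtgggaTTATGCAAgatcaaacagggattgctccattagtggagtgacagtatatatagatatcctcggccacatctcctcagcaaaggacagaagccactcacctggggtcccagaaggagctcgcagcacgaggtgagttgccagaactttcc
Members with a RefSeq promoter also numbered 29 but were not the same genes as those above the floor. Among them, TTNNGNAA was found in 18 and GAGGAAG in 8, against 40.7% and 13.6% of all promoters. A member with several promoters was counted once, whereas these shares count each promoter.

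A lipase inhibitor, a chromatin enzyme and 2 transcription factors made up the rest. *G0s2*, which encodes an inhibitor of the triglyceride lipase ATGL, was 4.29 in BMDM, 10.83 in pTAMs and 12.84 in mTAMs. *Padi4*, which encodes the deiminase that citrullinates histones when neutrophils release their chromatin, was 4.20 in BMDM, 7.90 in pTAMs and 9.33 in mTAMs. Both were below the floor in BMDM and higher in mTAMs than in pTAMs, by 4.03-fold and 2.69-fold. Of the transcription factors that drive granulocyte maturation, *Gfi1* was below the floor on every array.

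Taking both steps for each gene, 23 of the 29 had their larger log2 difference between BMDM and pTAMs and 6 between pTAMs and mTAMs. The 6 were *Elane*, *Mpo*, *Ctsg*, *Chil1*, *Pglyrp1* and *Serpinb1a*. For 13 genes the first difference rests on a BMDM value not above the floor. Counted from the floor, *Olfm4* joined the 6, which made 22 and 7. The 2-fold limit was passed upward at both steps by 21 of the 29, against 1.73% of all 12025 genes above the floor. The differences at both steps were among those known when the list was drawn up. The 5 members within 2-fold between mTAMs and pTAMs were *Prtn3*, *Elane*, *S100a9*, *S100a8* and *Slpi*. The 4 within 2-fold between pTAMs and BMDM were *Elane*, *Ctsg*, *Mpo* and *Serpinb1a*, so *Elane* was the only member within 2-fold in both.

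**Figure D3:**
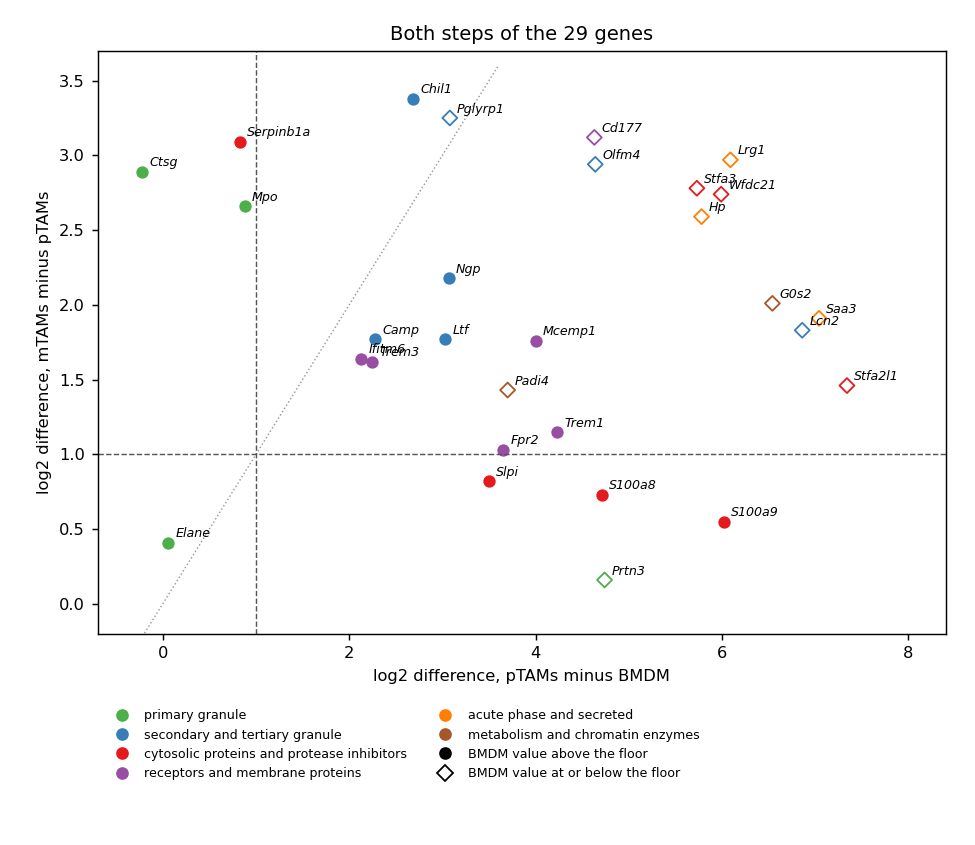
Log2 difference of pTAMs from BMDM (horizontal axis) and of mTAMs from pTAMs (vertical axis) for the 29 genes, colored by role, with open diamonds where the BMDM value was at or below the floor, dashed lines at 2-fold and a dotted line of equal difference. The axes share the pTAM array. *Ctsg*, *Mpo* and *Serpinb1a* lie at the upper left, *Prtn3*, *S100a8* and *S100a9* at the lower right.

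Neutrophil genes outside the members were compared too, from a list also chosen with earlier results of these data known. Of its 23 genes, 16 had a probe set of their own, and all 16 could be compared between mTAMs and pTAMs. Counted from the floor, 11 lay 2-fold or more above pTAMs and 0 below (median 1.36). Over all 11801 genes, 591 lay above and 288 below when counted in the same way. *Ceacam10*, a cell adhesion molecule gene expressed in granulocytes, was 12.6-fold higher, with 3.92 in BMDM, 6.35 in pTAMs and 10 in mTAMs. *Cxcr2*, which encodes the receptor through which neutrophils follow chemokines, was 8.82-fold higher, with 5.14, 8.18 and 11.32. *Asprv1*, which encodes an aspartic protease, was 7.11-fold higher, with 4.16, 9.11 and 11.94. Within 2-fold lay *Itgb2l* (1.91-fold), *Ms4a3* (1.66-fold from the floor), *Clec4d* (1.53-fold), *Fcnb* and *Ltb4r1* (1.06-fold each). *Clec4d* was highest in BMDM, with 13.20, 12.36 and 12.97, and *Fcnb* stayed near the floor, with 5.27, 5.49 and 5.58. Between pTAMs and BMDM, 12 of 15 passed the limit upward and 0 downward, against 8.78% and 7.5% of all genes. The largest differences were those of *Il1r2*, a decoy receptor gene for interleukin-1 (64.9-fold), and *Mmp9*, which encodes a gelatinase of the tertiary granules (42.5-fold). Between mTAMs and BMDM, 12 of 16 passed the limit upward and 0 downward, again from the floor, against 1264 and 1657 of 11945 genes.

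Factors of granulopoiesis other than *Gfi1* and *Cebpe* showed smaller differences. Of 8 measured, 1 passed the limit upward and 1 downward between mTAMs and pTAMs, counted from the floor (median 0.44). *Cebpd*, which encodes C/EBPδ, was 5.70-fold higher in mTAMs than in pTAMs, with 9.45 in BMDM, 9.83 in pTAMs and 12.34 in mTAMs. *Cebpb*, which encodes C/EBPβ, was 10.94, 13.11 and 13.67 in the same order, so that it differed by 4.50-fold between pTAMs and BMDM and by 1.47-fold between mTAMs and pTAMs. *Spi1*, which encodes PU.1 and is named here because its motif was searched, was 10.52, 10.70 and 11.49. *Myb*, a factor of progenitor cells, was at least 1.54-fold higher in mTAMs, counted from the floor as its pTAM value of 4.72 lay below the floor. *Irf8*, which favors the monocyte over the granulocyte fate, was 2.08-fold lower in mTAMs than in pTAMs, with 9.95, 10.88 and 9.82.

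Markers of other cells were read beside these genes. All 11 measured macrophage markers were above the floor on every array, and between mTAMs and pTAMs 0 passed the 2-fold limit upward and 3 downward, namely *Cd163* (4.32-fold), *Fcgr1* (2.73-fold) and *Aif1* (2.11-fold). Their mean log2 value was 10.89 in BMDM, 11.85 in pTAMs and 11.36 in mTAMs. *Adgre1*, which encodes F4/80, was 11.93, 10 and 10.06 in BMDM, pTAMs and mTAMs. Monocyte markers had a median difference of -0.93 between mTAMs and pTAMs, with 2 of 7 past the limit upward and 3 downward. *Chil3* (11.20 in pTAMs and 13.50 in mTAMs) and *Nr4a1* (2.0-fold) were higher in mTAMs. *F13a1* and *Vcan* (2.45-fold each) and *Cx3cr1* (2.31-fold) were lower. Of 6 measured eosinophil markers, *Prg2* (at least 8.0-fold) and *Siglecf* (at least 12.2-fold) were higher in mTAMs than in pTAMs. *Siglecf* is also a marker of alveolar macrophages. *Alox15* was 5.46, 8.74 and 9.46 in BMDM, pTAMs and mTAMs, within 2-fold between the last 2. *Epx*, *Ccr3* and *Il5ra* were below the floor on every array. Of 8 measured mast cell and basophil markers, 5 were above the floor in mTAMs against 2 in pTAMs. *Mcpt8* was at least 12.1-fold, *Kit* 7.36-fold, *Gata2* 2.71-fold, *Cpa3* at least 2.31-fold and *Ms4a2* at least 1.03-fold higher in mTAMs. *Mcpt4*, *Tpsb2* and *Fcer1a* were below the floor throughout. Epithelial or carcinoma markers were lower in mTAMs than in pTAMs by a median of 0.79 on the log2 scale, with *Cdh1* 9.88 in pTAMs and 8.16 in mTAMs. Between pTAMs and BMDM, however, 6 of 7 compared passed the limit upward and 0 downward (median 5.02), with *Krt18* 3.78 in BMDM and 9.77 in pTAMs. All 7 monocyte markers also passed it upward there (median 4.22), and of 11 macrophage markers 6 did so and 1 passed it downward. The rise from BMDM to pTAMs was thus not particular to the granulocytic genes. Of 10 measured T, B and NK cell markers, 4 were above the floor on each array. *Cd8a* (5.40) and *Cd4* (6.19) held the same value on all 3 arrays. *Cd3e* barely varied, with 6.49, 6.52 and 6.57 in BMDM, pTAMs and mTAMs. Only *Cd3d* (5.86, 6.03 and 8.31) differed by 2-fold between mTAMs and pTAMs. All 4 measured red cell markers were below the floor on every array. The part that other cells in the sorts had in the levels of the granulocytic genes was not tested.

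**Figure D4:**
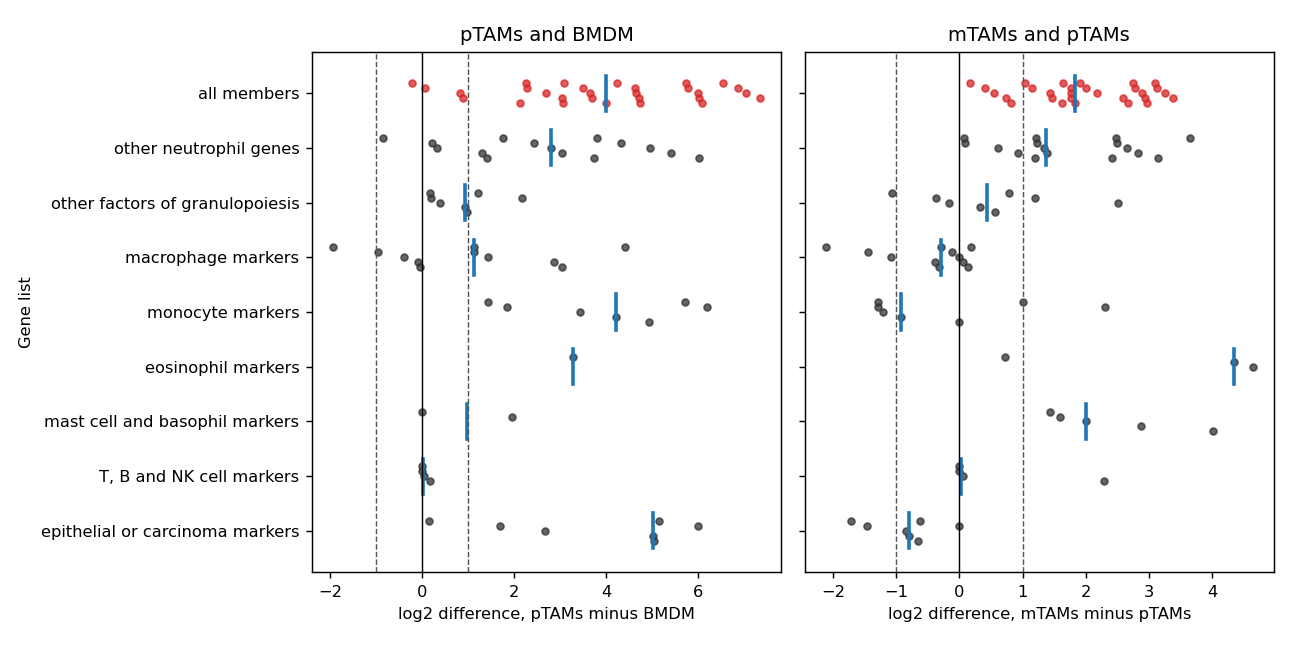
Log2 difference (horizontal axes, dashed lines at 2-fold) of pTAMs from BMDM and of mTAMs from pTAMs for the members and 8 other gene lists (vertical axis), with 1 point per gene above the floor on at least 1 of both arrays and a blue bar at the median. Between mTAMs and pTAMs the median is 1.83 for the members, 1.36 for other neutrophil genes and -0.29 for macrophage markers.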

How the data were processed

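Total RNA of BMDM, pTAMs and mTAMs was labeled with biotin and hybridized to Affymetrix mouse expression arrays, 1 per group. The authors deposited log2 values made with RMA, which corrects background, quantile-normalizes arrays and summarizes each probe set over all arrays. No version of RMA was named. Quantile normalization hides any shift of the whole transcriptome, and values are rounded to 2 decimals. Array medians were 5.36, 5.43 and 5.43, and 21.4% of probe sets held the same value on all 3 arrays.

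Probe sets were named from the platform annotation (34945 of 45037 with 1 symbol, 932 with several and 9160 with none). A gene was read from its single-symbol probe set with the highest mean. All 34 symbols were found in the RefSeq gene table, and promoters were found for 29 of them. Of the receptor genes of sensory tissues (84 probe sets), 91.7% of values lay at or below the floor of 5.3 and their 95th percentile was 5.56. A comparison took the genes for which 1 or both of its arrays exceeded the floor, and a gene was called at a log2 difference of 1. Because groups were single arrays, nothing was tested across samples, and the precision is set by that number. The members and all lists were chosen with earlier results of these data known. Named are all measured members and, of other lists, mainly the genes with the 3 largest differences per comparison. The code was run on simulated data with known shifts larger than the call limit, which checks the code and not the calls on these arrays. Alternatives were 3 normalizations, other choices of probe set, floor and threshold, and a floor of 5.56, which was chosen after seeing the data. A comparison of protein sequences was not made. Python 3.11.15, numpy 2.4.6, pandas 2.3.3, matplotlib 3.10.9, R 4.3.3 and limma 3.58.1 were used.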

Additional observations from a re-analysis of the deposited data

Results flagged for a closer look

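*Ctsg* stood out because its difference from BMDM had opposite signs in the 2 groups of tumor-associated macrophages, -0.22 on the log2 scale in pTAMs and 2.67 in mTAMs. The difference between the groups was not tested, with 1 array each, and the pTAM value of 5.18 lay below the floor while the BMDM value of 5.40 lay just above it. A probe set annotated with 2 gene symbols, 1 of them a stefin A gene, was not used in the comparisons. It read 3.30 in BMDM, 11.24 in pTAMs and 12.87 in mTAMs, so that mTAMs lay 9.57 above BMDM on the log2 scale as measured, with the BMDM value below the floor.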

How the results depend on the processing

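The counts of members at least 2-fold higher or lower in the 3 comparisons kept within 1.5 times of their values under all alternatives, and no difference of a member changed its direction among those past 2-fold. The lowest counts of higher members were 22, 25 and 20 for pTAMs against BMDM, mTAMs against BMDM and mTAMs against pTAMs. The first 2 came from probe sets not marked as shared, which leave 26 members to compare, and the third from the 3-fold threshold. When low values were set to the floor, the median difference of members between pTAMs and BMDM was 3.50 in place of 4.00, as 13 BMDM values lay there. The mean of all probe sets moved *Serpinb1a* to 0.37 and 3.35 and *Trem1* to 5.91 against BMDM. Cyclic loess normalization moved the median of all genes between mTAMs and BMDM from -0.11 to 0, and the share of higher genes among those called from 44.4% to 55.1%, where the count of higher members was 28. Leaving out a replicate was not possible with 1 array per group. No paired analysis was possible because each group held 1 array. Values below the floor and near the maximum of an array limit what can be read from the size of a difference. The maxima were 14.38, 14.23 and 14.30 for BMDM, pTAMs and mTAMs.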
